A study of Mus musculus with 6 samples.

Results

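The fibroblast growth factor (FGF) pathway genes described here are a listed set of 34 genes: FGF ligands, receptors, carriers, adaptors, feedback inhibitors and targets. All 34 were found by symbol among the 24959 genes of the deposited table. They were read in 6 RNA-seq libraries labelled as mouse dental epithelial cells at postnatal day 0: 3 controls with the genotype WT, and 3 libraries labelled cKO with the genotype PKM knockout (Pkm cKO, or knockouts). Pkm encodes the M-type pyruvate kinases, which carry out the last step of glycolysis, and the series asks how its deletion alters gene expression in the dental epithelium. The sources used here do not give the Cre driver, the deleted exons, the strain, or whether a library came from 1 animal or from pooled tissue, and the p-values speak only of variation among these 6 libraries.

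FGFs are secreted ligands that bind receptor tyrosine kinases on neighbouring cells together with heparan sulfate, and the receptors signal through the adaptor FRS2 and the RAS to ERK kinase cascade. ERK signaling raises the Etv transcription factors and a set of inhibitors (Sprouty, Spred, Dusp6 and Sef proteins) that dampen the same signal. In the tooth the ligands pass between 2 tissues: the epithelium makes FGF4, FGF8, FGF9 and FGF20, and the mesenchyme makes FGF3, FGF7 and FGF10, which keep dental epithelial progenitors dividing.

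Expression is given in CPM, counts divided by the TMM-scaled size of each library in edgeR. Total counts were 30588350 to 39415700 per library. Pkm itself stood at 1281, 1185 and 1049 CPM in control replicates 1 to 3 and at 309, 395 and 350 CPM in Pkm cKO replicates 1 to 3 (log2 fold change -1.74 with SE 0.159, adjusted p 0.0109 in edgeR), so the libraries followed their labels, although this call was lost without any 1 of the controls (adjusted p 0.0792 at most). Of 15930 genes with enough reads to be tested, 0.552% were called at an edgeR quasi-likelihood adjusted p under 0.05, 17.5% had an unadjusted p under 0.05, and 23.3% had groups that did not overlap in any library. Markers of the labelled tissue were abundant: 10 of 10 epithelial markers were detected, and their sum was 13477 to 15602 CPM in the WT libraries, against 9663 to 11408 CPM in the knockouts. Mesenchymal markers were abundant as well, with a sum of 19493 to 31204 CPM in the WT libraries, against 17979 to 39648 CPM in the knockouts. Pkm cKO replicate 3 stood apart: its correlation with the other libraries (log2 CPM over tested genes) was 0.918 to 0.949, and it alone held oral keratins and muscle transcripts at high levels, as given below beside the genes concerned. In such bulk samples, fewer cells of a type and less RNA per cell cannot be told apart.

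Ligands of both tissues were present at higher levels in the Pkm knockouts, while FGF1 was lower, and none of these differences passed the threshold over all genes. Of the 34 members, 28 had enough reads to be tested and 0 were called by edgeR at an adjusted p under 0.05 (0.552% of all genes were). DESeq2 called 5 of them (Fgf9, Fgf10, Fgf1, Fgfr3 and Etv4), beside 6.89% of all genes. At an unadjusted p under 0.05 there were 8 members, 7 higher (9.57% of all genes) and 1 lower (7.9% of all genes). The groups did not overlap for 6 higher members (11.2% of all genes) and 2 lower members (12.2% of all genes), 8 of 28 in all beside 23.3% of all genes, a share near the background. Without Pkm cKO replicate 3, 9 members were higher and 4 lower without overlap, beside 36.7% of all genes. The median log2 fold change of the 28 was 0.33, against 0.0068 for all tested genes, and 22 of the 28 were above 0, against 50.8% of all tested genes. The 6 members with too few reads to be tested were Fgf4, Fgf7, Fgf8, Fgf18, Fgf20 and Fgfr4.

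**Figure D1:**
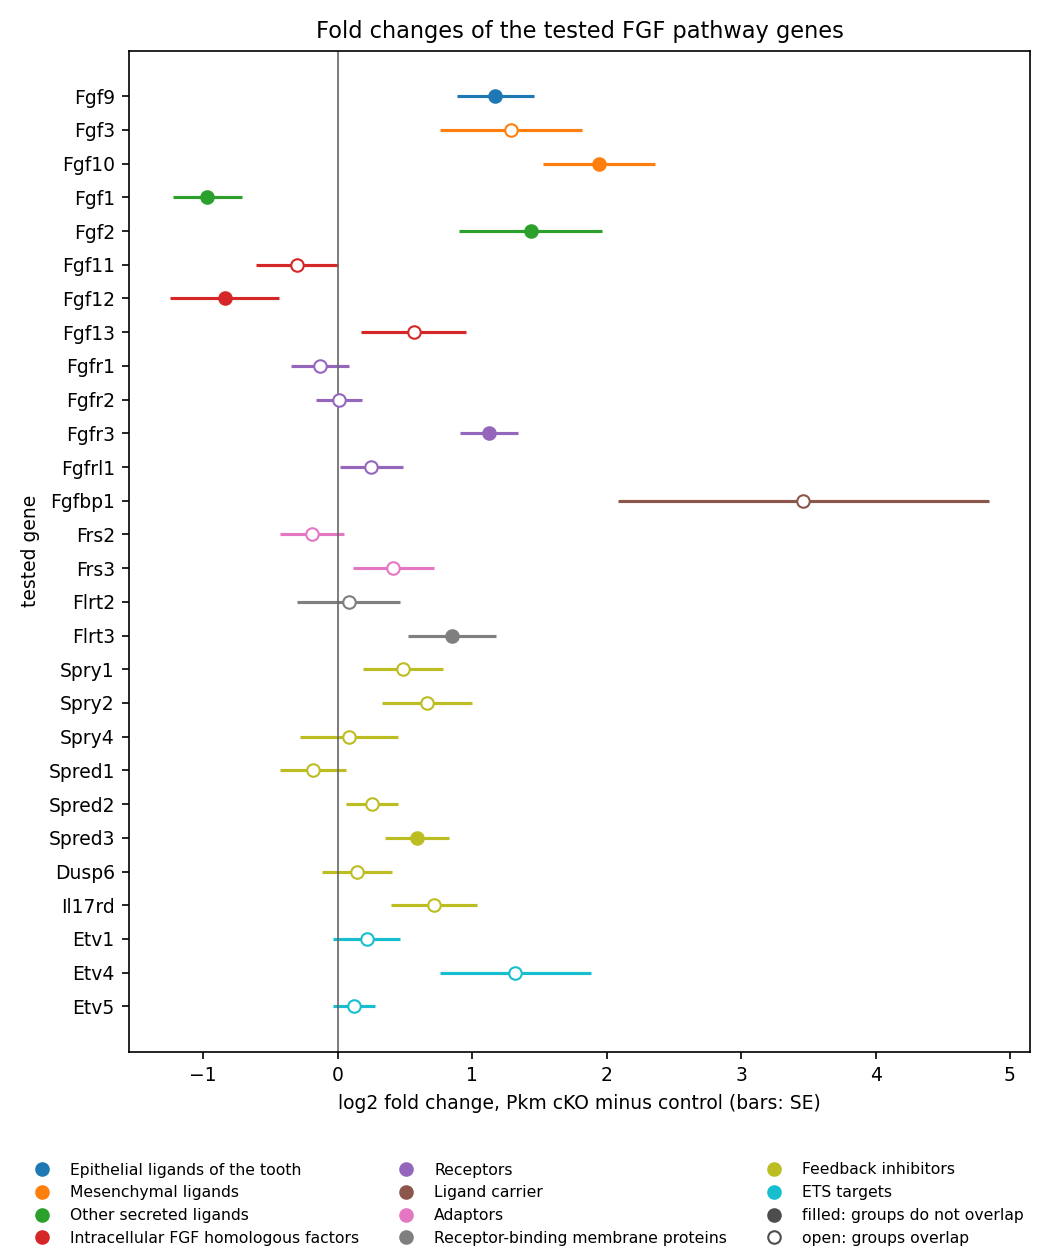
Log2 fold change (horizontal axis, Pkm cKO minus control, bars show the SE) of the 28 tested genes, ordered and coloured by role. Filled points mark genes whose groups did not overlap in any library; most points lie right of 0, with Fgf1 and Fgf12 the filled points to its left, and Fgfbp1 has the longest bar.

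Among the epithelial ligands, Fgf9 was the 1 with appreciable reads. Fgf9 (NCBI gene 14180), which signals from the epithelium and enamel knots to the mesenchyme, stood at 6.92, 6.34 and 13.2 CPM in control replicates 1 to 3 and at 18.9, 19.8 and 20.9 CPM in Pkm cKO replicates 1 to 3. All knockouts lay above all controls, and the controls were the more spread group, with replicate 3 highest. The mean was 8.81 ± 3.79 CPM in the WT libraries, against 19.9 ± 0.977 CPM in the knockouts (SD, n = 3 each), which is a difference of 1.17 on the log2 scale (SE 0.290, edgeR adjusted p 0.0955). The other epithelial ligands were at or near 0 in every library. Fgf4, an enamel knot ligand, had 9 reads in Pkm cKO replicate 3 and 0 elsewhere. Fgf8, which marks the early dental epithelium, had 1 and 5 reads in Pkm cKO replicates 1 and 3 and 0 elsewhere. Fgf20, also an enamel knot ligand, had at most 2 reads in a library. At this depth a difference in these 3 genes was not detectable.

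The mesenchymal ligands were rarer than Fgf9 and were also higher in most knockouts. Fgf10 (NCBI gene 14165), the mesenchymal ligand that maintains the epithelial stem cells of the mouse incisor, had 36, 26 and 36 reads in the controls and 73, 152 and 129 reads in the knockouts. In CPM these were 0.980, 0.673 and 0.934 against 2.36, 4.42 and 3.20, so that the lowest cKO library was above the highest control. The log2 fold change of Fgf10 was 1.94 (SE 0.418, edgeR adjusted p 0.0736). Fgf3 (NCBI gene 14174), which the enamel knot and the dental mesenchyme both make, stood at 0.926, 1.35 and 1.505 CPM in the WT libraries, against 3.00, 5.03 and 1.22 CPM in the knockouts. Pkm cKO replicate 3 lay among the controls for Fgf3, and replicates 1 and 2 above them (log2 fold change 1.29 with SE 0.526, adjusted p 0.249 in edgeR). Fgf7 (NCBI gene 14178), a mesenchymal ligand for the epithelial form of FGFR2, had 1, 1 and 6 reads in controls and 59, 6 and 113 reads in knockouts. Pkm cKO replicates 1 and 3 held most Fgf7 reads and replicate 2 had as many as control replicate 3. Fgf7 had too few reads for the test as reported. With no filter on low counts it was called (adjusted p 0.0375 in edgeR). Otherwise it was kept only in fits with 1 library left out, through the knockouts where it was high. Among these it was called without Pkm cKO replicate 2, its lowest knockout (0.0324). It was not called without control replicate 1, 2 or 3 (0.397, 0.329 and 0.2003). Because of how Fgf7 entered these fits, the calls are no support for a difference.

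Read together, both ligand sources were higher in the knockouts. The epithelial ligands summed to 6.92, 6.37 and 13.2 CPM in the WT libraries, against 19.0, 19.8 and 21.3 CPM in the knockouts, a 2.27-fold higher mean made almost wholly of Fgf9. The mesenchymal ligands summed to 1.93, 2.05 and 2.59 CPM in the WT libraries, against 7.27, 9.62 and 7.23 CPM in the knockouts, a 3.67-fold higher mean. The log2 ratio of mesenchymal over epithelial ligands was -1.94 ± 0.364 in controls and -1.33 ± 0.261 in knockouts (SD, n = 3 each), and the groups did not overlap: -1.84, -1.64 and -2.34 against -1.38, -1.05 and -1.56. The epithelial sum was therefore above the mesenchymal sum in every library, by 2.06 to 5.08 times in CPM. The difference between the groups in this log2 ratio was 0.612, or 1.16 with Fgf3 left out of the mesenchymal group. No test was made of these sums, since the members were chosen with earlier results known.

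**Figure D2:**
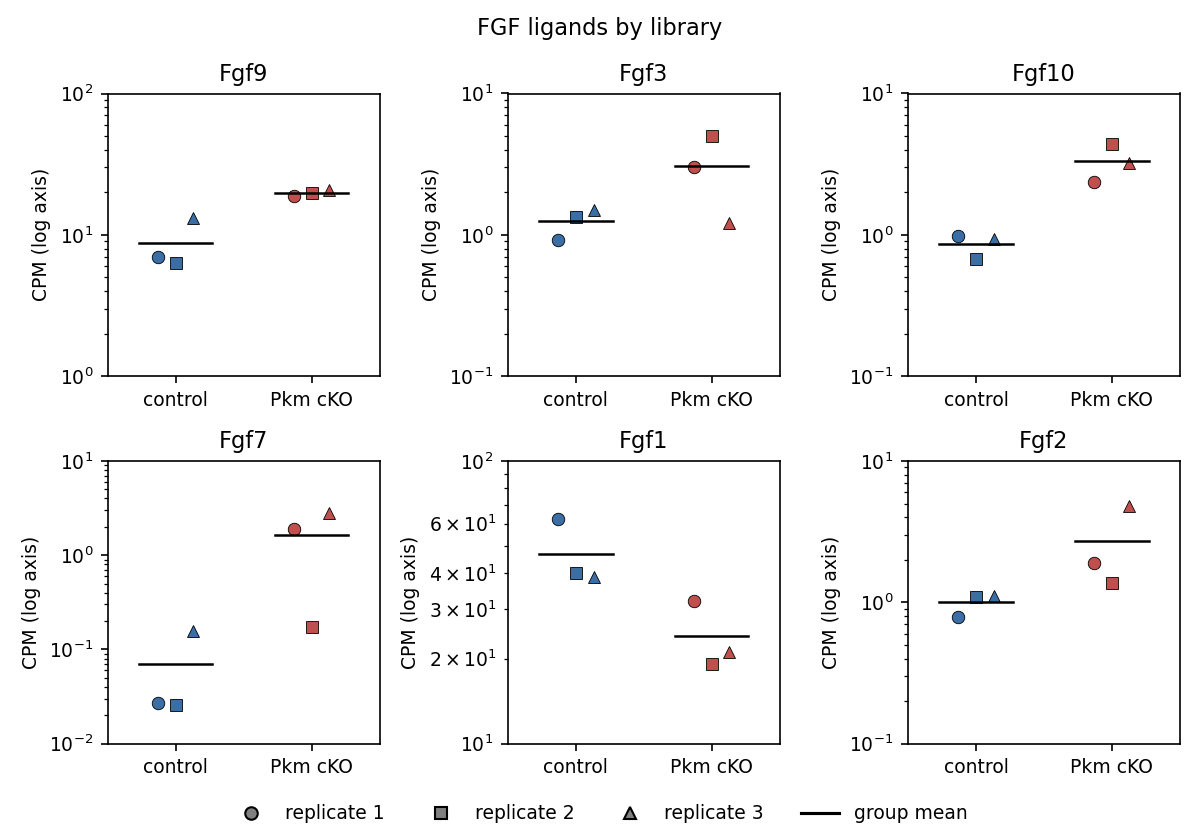
CPM (vertical log axes, whose ranges differ between panels) of 6 FGF ligands in controls (blue) and Pkm knockouts (red), 1 point per library, with the replicate number as the shape and the group mean as a bar. Fgf9, Fgf10 and Fgf2 lie higher in every cKO library than in any control, Fgf1 lies lower, and Fgf3 of cKO replicate 3 sits among the controls.

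Mesenchymal markers moved in the same direction as the mesenchymal ligands for most genes but not in sum. Of 12 markers of dental mesenchyme and fibroblasts, 10 had log2 fold changes above 0 (median 0.77), beside 50.8% of all tested genes. For 8 the groups did not overlap, all higher in knockouts (11.2% of all genes were), and 0 were called. The tooth mesenchyme regulator Msx1 stood at 25.5, 38.0 and 26.8 CPM in the WT libraries, against 78.8, 55.6 and 55.6 CPM in the knockouts. The most abundant markers, the collagen genes Col1a1 and Col1a2, had log2 fold changes of -0.09 (SE 0.388) and -0.14 (SE 0.366). Whether the share of mesenchymal cells bears on Fgf3, Fgf7 and Fgf10 was not tested.

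Of the other secreted ligands, Fgf1 was the lower gene and Fgf2 the higher. Fgf1 (NCBI gene 14164), which binds all FGF receptors, stood at 62.1, 40.2 and 38.8 CPM in the WT libraries, against 31.9, 19.2 and 21.1 CPM in the knockouts. Every cKO library was below every control, and replicate 1 was the highest in both groups. The mean was 47.1 ± 13.1 against 24.1 ± 6.84 CPM (SD, n = 3 each; log2 fold change -0.97 with SE 0.254, adjusted p 0.106 in edgeR). Per kilobase of exons, Fgf1 was the most abundant of the secreted ligands in controls, with a mean level of 8.61 ± 2.39 CPM per kb against 1.90 ± 0.816 for Fgf9, 0.541 ± 0.129 for Fgf3 and 0.187 ± 0.0360 for Fgf10 (SD, n = 3 each). In the knockouts the levels per kilobase of Fgf1 and Fgf9 were alike, at 4.40 ± 1.25 and 4.28 ± 0.210 CPM per kb.

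The ameloblast markers were lower in the same libraries as Fgf1. All 7 of these genes of enamel-secreting cells had groups that did not overlap, lower in the knockouts (12.2% of all genes were). Of the 7 genes, Odam was the 1 called (log2 fold change -1.23, edgeR adjusted p 0.0312). Their sum was 25236, 22048 and 10705 CPM in the WT libraries, against 5553, 719 and 356 CPM in the knockouts. Like Fgf1, it was highest in replicate 1 of each group. The part of ameloblasts in the level of Fgf1 was not tested.

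Fgf2 (NCBI gene 14173), which is made by many mesenchymal and endothelial cells, had 29, 42 and 43 reads in controls and 59, 47 and 194 reads in knockouts. Its CPM were 0.790, 1.09 and 1.12 against 1.91, 1.37 and 4.82, with Pkm cKO replicate 3 far above the rest (log2 fold change 1.43 with SE 0.528, adjusted p 0.207 in edgeR). Without that library the log2 fold change of Fgf2 was 0.72. The exons of Fgf2 overlap those of Nudt6 on the opposite strand. The sources used here give no strand setting for the counts, so reads in the shared stretch cannot be told apart. Fgf18, a ligand of skeletal tissues, had 3 to 25 reads in a library and was not tested.

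The intracellular FGF homologous factors, which are not secreted and modulate sodium channels, did not move together. Fgf12 stood at 2.53, 2.25 and 2.33 CPM in the WT libraries, against 1.49, 0.872 and 1.61 CPM in the knockouts, with no overlap (log2 fold change -0.84 with SE 0.405, adjusted p 0.318 in edgeR). Fgf11 stood at 15.1 ± 5.04 against 12.2 ± 3.90 CPM and Fgf13 at 3.35 ± 0.657 against 4.97 ± 2.44 CPM (SD, n = 3 each), both with groups that overlapped. Of 7 markers of neurons and Schwann cells, cell types that carry these factors, 5 were tested. Their sum was 267 to 429 CPM in the WT libraries, against 107 to 290 CPM in the knockouts, most of it from Tubb3. The part of nerve cells in these 3 genes was not tested.

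Fgfr3 had the lowest p of all members. This receptor, known for holding back growth in cartilage and present in dental cells, stood at 17.9, 20.1 and 27.1 CPM in control replicates 1 to 3 and at 37.7, 52.4 and 52.0 CPM in Pkm cKO replicates 1 to 3. All knockouts were above all controls, with a gap between the highest control and the lowest cKO library. Exons of Fgfr3, like those of Fgf10 and Spred3, overlap a gene on the opposite strand, so part of their reads could be that gene's. The mean of Fgfr3 (NCBI gene 14184) was 21.7 ± 4.79 against 47.4 ± 8.398 CPM (SD, n = 3 each), 2.18-fold higher, with a log2 fold change of 1.13 (SE 0.215) and an edgeR adjusted p of 0.0538. Its adjusted p ran from 0.000201 with DESeq2 to 0.3005 without control replicate 1, and its log2 fold change from 1.00 to 1.31.

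The main receptors did not follow Fgfr3. Fgfr1, which takes mesenchymal and epithelial ligands, stood at 1324, 1446 and 1360 CPM in the WT libraries, against 1666, 1232 and 868 CPM in the knockouts. The knockouts lay on both sides of the controls (log2 fold change -0.13 with SE 0.216, adjusted p 0.795 in edgeR), and without Pkm cKO replicate 3 the log2 fold change was 0.09. Fgfr2, whose splice forms answer to mesenchymal or epithelial ligands and cannot be separated in gene counts, stood at 308, 304 and 326 CPM in the WT libraries, against 304, 253 and 386 CPM in the knockouts. Its log2 fold change was 0.01 (SE 0.172). Fgfrl1, a receptor without a kinase domain, overlapped between groups at 19.0 ± 4.21 and 22.6 ± 4.40 CPM. Per kilobase of exons in controls, Fgfr1 came first at 139 ± 6.33 CPM per kb, followed by Fgfr2 at 30.3 ± 1.12, Fgfrl1 at 6.84 ± 1.51 and Fgfr3 at 3.03 ± 0.668 (SD, n = 3 each). In the knockouts Fgfr3 reached 6.62 ± 1.17 CPM per kb, beside 8.14 ± 1.58 for Fgfrl1, and these 2 levels did not differ beyond their spread. The first receptor and the second kept their places in both groups, with 127 ± 40.5 CPM per kb for Fgfr1 and 30.4 ± 6.51 for Fgfr2 in the knockouts.

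A few members were high in Pkm cKO replicate 3 alone. Fgfbp1, a secreted carrier that frees FGFs from heparan sulfate and is made by stratified epithelia, stood at 0.517, 1.32 and 0.882 CPM in the WT libraries, against 1.29, 1.83 and 26.9 CPM in the knockouts. The log2 fold change of Fgfbp1 was 3.46 (SE 1.38, edgeR adjusted p 0.287) and 0.79 without that library. Fgfr4, a receptor of myoblasts and liver, had 4, 4 and 10 reads in controls and 3, 20 and 412 reads in knockouts. Flrt3, a membrane protein that binds FGF receptors, stood at 6.51, 7.02 and 6.56 CPM in the WT libraries, against 8.56, 8.75 and 18.8 CPM in the knockouts, so its groups did not overlap (log2 fold change 0.85 with SE 0.327, adjusted p 0.227 in edgeR). Without Pkm cKO replicate 3 its log2 fold change was 0.38.

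The same library held transcripts of other tissues. Krt13, a keratin of the oral lining, stood at 0.218, 1.32 and 1.17 CPM in the WT libraries, against 4.55, 18.3 and 2831 CPM in the knockouts. A list of 7 keratins and barrier genes of oral epithelium, chosen after values were seen, summed to 146 to 179 CPM in the WT libraries, against 146, 419 and 5575 CPM in the knockouts. The 6 skeletal muscle markers summed to 0.777 to 1.74 CPM in the WT libraries, against 56.3, 12.1 and 1900.4 CPM in the knockouts. Myod1, which defines myoblasts, had 0 reads in every library except Pkm cKO replicate 3. The part of oral epithelium in Fgfbp1 and of muscle in Fgfr4 was not tested.

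**Figure D3:**
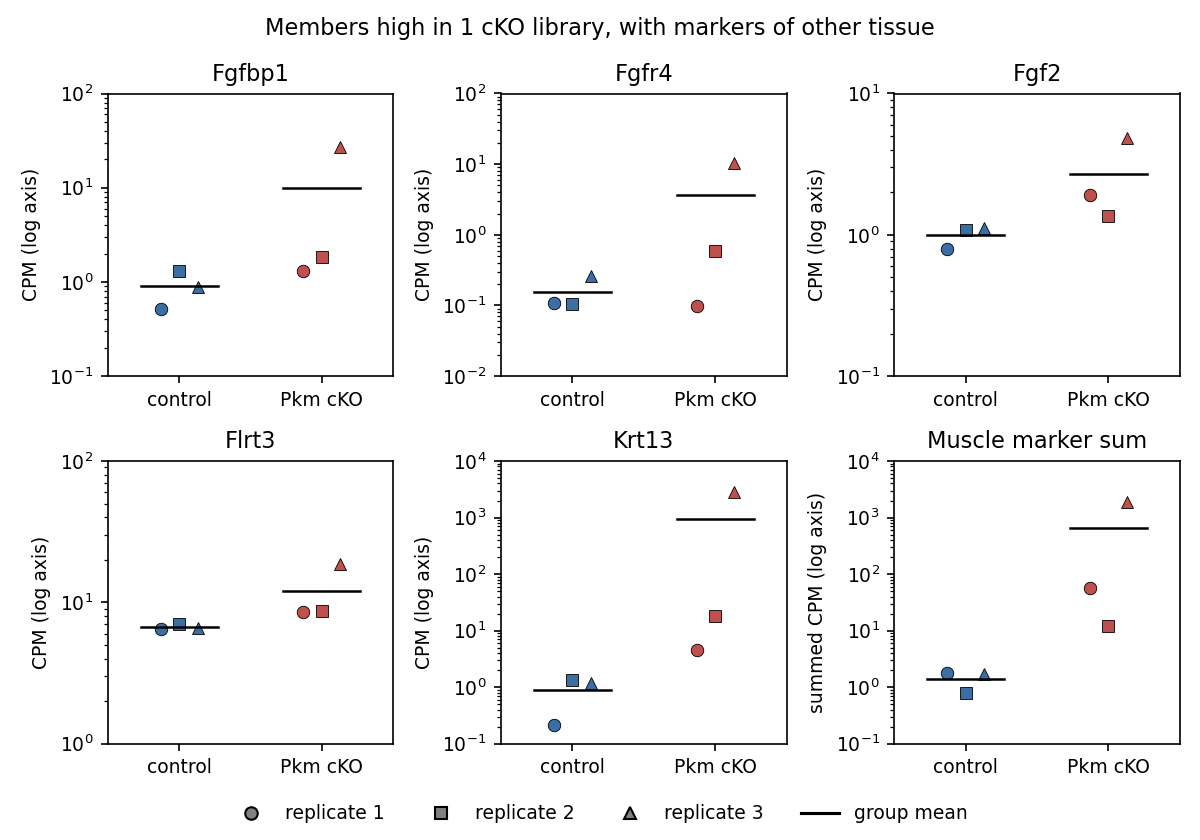
CPM (vertical log axes, whose ranges differ between panels) of 4 FGF pathway genes, of the oral keratin gene Krt13 and of the summed muscle markers in controls (blue) and Pkm knockouts (red), with the replicate number as the shape and the group mean as a bar. In each panel the triangle of Pkm cKO replicate 3 is the highest point.

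Flrt2 and the adaptors overlapped between groups. Flrt2, a relative of Flrt3 made by mesenchyme, averaged 37.7 ± 12.5 against 39.9 ± 20.4 CPM (SD, n = 3 each), and its log2 fold change of 0.08 changed sign without control replicate 3 or Pkm cKO replicate 1. Frs2, the docking protein that links FGF receptors to GRB2, averaged 79.1 ± 6.92 against 69.4 ± 23.5 CPM, with Pkm cKO replicate 2 lowest at 43.5 CPM. The log2 fold change of Frs2 was -0.19, and 0.06 without that library. Frs3, a relative of Frs2, averaged 7.62 ± 1.12 against 10.2 ± 3.60 CPM (log2 fold change 0.41, SE 0.299). None of the 3 had an unadjusted p under 0.05.

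The feedback inhibitors are the usual readout of FGF to ERK signaling, and they were only slightly higher on average. Of the 8 genes, 7 had a log2 fold change above 0 (median 0.37), beside 50.8% of all tested genes. Of these 8, 1 had no overlap between groups, about the background share (11.2% of all genes were higher without overlap), and edgeR called 0 of them, with 1 at an unadjusted p under 0.05. Spred3, which restrains RAF activation, was that 1 gene. It stood at 9.42, 9.09 and 13.39 CPM in the WT libraries, against 13.41, 18.3 and 16.3 CPM in the knockouts, with almost no gap between control replicate 3 and Pkm cKO replicate 1 (log2 fold change 0.59 with SE 0.238, adjusted p 0.242 in edgeR). Il17rd, which encodes the FGF antagonist Sef, stood at 20.2, 25.6 and 30.7 CPM in the WT libraries, against 22.1, 48.5 and 55.1 CPM in the knockouts. Pkm cKO replicate 1 lay at the low end of the controls for Il17rd and the other knockouts above them. Without Pkm cKO replicate 1 the log2 fold change of Il17rd, 0.72 (SE 0.321, edgeR adjusted p 0.291), became 1.02 with an adjusted p of 0.0385. This fit leaves out the knockout nearest the controls, and it was the 1 of 14 alternatives that called Il17rd. Over the alternatives its adjusted p reached 0.687, and the calls over all genes also moved with the library left out, as given below.

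Of the Sprouty genes, which block the step from receptor to RAS, Spry1 and Spry2 had the same shape and Spry4 did not. Spry2, needed in the mouse to keep extra tooth buds from forming, stood at 20.6, 42.7 and 41.5 CPM in the WT libraries, against 34.9, 70.3 and 61.1 CPM in the knockouts. Spry1 stood at 26.8, 43.7 and 46.1 CPM in the WT libraries, against 32.7, 62.8 and 67.9 CPM in the knockouts. In both genes Pkm cKO replicate 1 lay within the control range and the other knockouts above it. The log2 fold changes were 0.67 (SE 0.336) for Spry2 and 0.49 (SE 0.2998) for Spry1, with edgeR adjusted p of 0.349 and 0.446. Spry4 stood at 9.94, 19.3 and 12.8 CPM in the WT libraries, against 10.2, 23.5 and 10.9 CPM in the knockouts, with Pkm cKO replicates 1 and 3 inside the control range and replicate 2 above it. Dusp6, the phosphatase that removes phosphate from ERK, stood at 26.2, 44.5 and 35.1 CPM in the WT libraries, against 26.7, 49.4 and 40.8 CPM in the knockouts, again with replicates 1 and 3 inside the control range and replicate 2 above it (log2 fold change 0.15, SE 0.260). Spred1 and Spred2 had log2 fold changes of -0.18 (SE 0.244) and 0.25 (SE 0.191).

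The Etv genes encode the ETS-family transcription factors that FGF signaling induces, and Etv4 was the member with the widest range among them. Etv4 (NCBI gene 18612) stood at 21.7, 35.2 and 49.97 CPM in the WT libraries, against 35.6, 143.7 and 87.7 CPM in the knockouts. Pkm cKO replicate 1 was close to control replicate 2, while replicates 2 and 3 were above every control (log2 fold change 1.32 with SE 0.563, adjusted p 0.307 in edgeR). Without Pkm cKO replicate 1, the knockout within the control range, the log2 fold change of Etv4 was 1.70 with an edgeR adjusted p of 0.0466. Etv4 was called in 2 of 14 alternatives, this fit and DESeq2, and its adjusted p reached 0.681 over them. The calls over all genes also moved with the library left out, as given below. Etv5 stood at 50.6, 52.2 and 57.7 CPM in the WT libraries, against 58.6, 64.6 and 51.3 CPM in the knockouts, which differed by less than the spread (log2 fold change 0.12, SE 0.154). Etv1 averaged 6.96 ± 1.12 against 8.09 ± 0.521 CPM (SD, n = 3 each; log2 fold change 0.22, SE 0.249).

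Across libraries, most of these genes had their lowest value in replicate 1 of a group, while the highest place was split between replicates 2 and 3. Of the 11 feedback inhibitors and Etv genes, 8 were lowest in control replicate 1 among the controls (31.8% of all tested genes were). Among the knockouts, 9 were lowest in Pkm cKO replicate 1 (32.3% of all tested genes were). Of the 17 other tested members, 8 were lowest in control replicate 1 and 6 in Pkm cKO replicate 1. For 7 of the 11 genes replicate 1 was the lowest in both groups, as it was for 13.2% of all tested genes. The ameloblast sum was highest in replicate 1 of each group. The 11 genes share their libraries and depth, so this is a description of these 6 libraries.

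**Figure D4:**
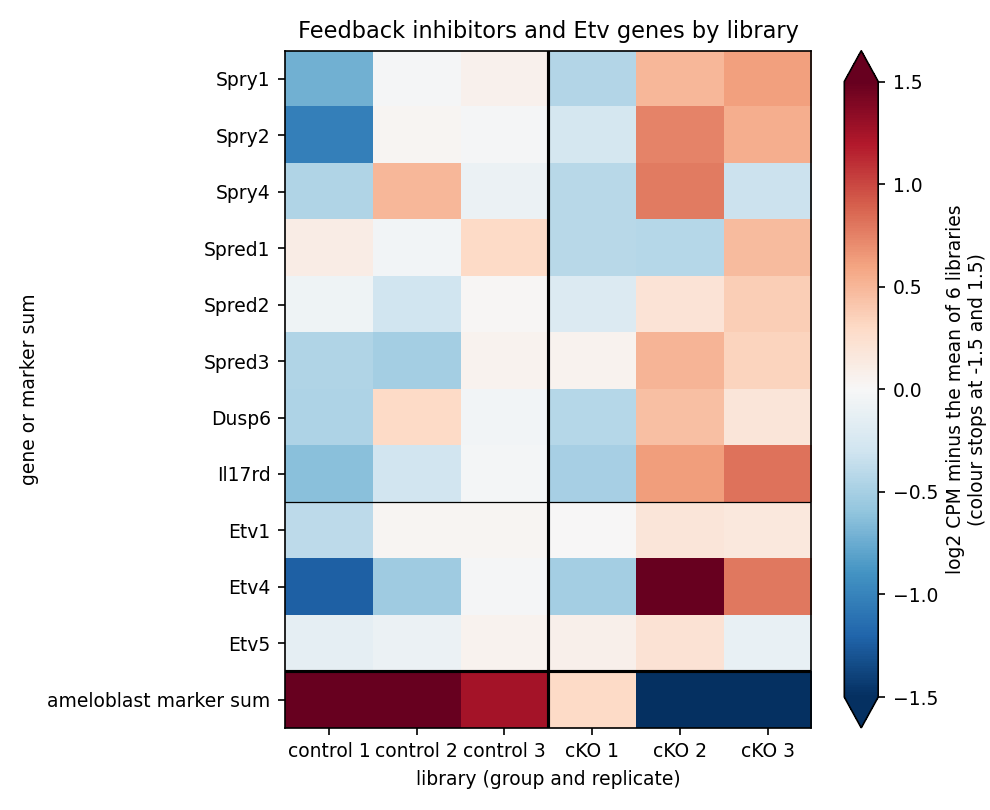
Log2 CPM minus the mean over the 6 libraries (colour, red above and blue below the mean, stopped at -1.5 and 1.5) for the 8 feedback inhibitors, the 3 Etv genes and, in the bottom row, the summed ameloblast markers, with 1 column per library. Control replicate 1 and Pkm cKO replicate 1 are blue for most genes, Pkm cKO replicates 2 and 3 are mostly red, and the ameloblast row is highest in replicate 1 of each group.

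Promoter sequences of the members were searched for short words, and a link between such words and the levels above was not tested. Capicua (CIC) is a repressor that ERK signaling removes from its target genes, and it binds the octamers TGAATGAA, TGAATGGA, TCAATGAA and TCAATGGA. RefSeq promoter windows (build GRCm38.p6) were at hand for 28 of the 34 members, 37 windows in all. They run from 250 bases before to 50 bases after a gene's start. Fgf1, Fgf8, Fgf20, Fgfr1, Spry4 and Etv4 had no window and were not searched. An octamer on either strand was present in 3 of the 37 windows (8.11%), against 3.84% of all 32851 windows, and these 3 belonged to Spry2, Spred3 and Dusp6. The ETS core CCGGAAG, searched on both strands, was present in the windows of Fgfrl1 and Frs2 (5.41% of the windows, against 8.86% of all). No octamer contains the ETS core, and a match is a description of the sequence, not of binding. The 3 windows read as follows, 5′ to 3′ on the gene's strand, with the octamer or its reverse complement in capitals.
Spry2, chr14:105896770-105897069, minus strand: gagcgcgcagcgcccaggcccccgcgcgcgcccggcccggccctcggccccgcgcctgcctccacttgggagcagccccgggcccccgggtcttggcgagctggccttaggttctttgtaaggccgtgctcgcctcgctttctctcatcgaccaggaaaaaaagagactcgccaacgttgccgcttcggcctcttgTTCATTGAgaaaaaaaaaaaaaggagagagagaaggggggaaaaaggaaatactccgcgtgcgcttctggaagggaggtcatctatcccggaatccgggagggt
Spred3, chr7:29168598-29168897, minus strand: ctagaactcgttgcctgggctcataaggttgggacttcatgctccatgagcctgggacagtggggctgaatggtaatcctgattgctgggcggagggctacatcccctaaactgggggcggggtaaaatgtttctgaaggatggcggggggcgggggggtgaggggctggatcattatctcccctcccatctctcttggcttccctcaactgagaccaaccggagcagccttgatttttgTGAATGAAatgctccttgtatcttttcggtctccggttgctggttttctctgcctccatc
Dusp6, chr10:99262981-99263280, plus strand: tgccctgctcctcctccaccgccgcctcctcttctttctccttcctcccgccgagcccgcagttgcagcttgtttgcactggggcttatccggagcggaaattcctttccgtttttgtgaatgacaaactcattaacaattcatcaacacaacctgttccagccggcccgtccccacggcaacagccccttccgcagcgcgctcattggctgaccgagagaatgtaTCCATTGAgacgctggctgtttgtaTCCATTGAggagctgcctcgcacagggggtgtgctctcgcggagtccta
Counted from the start of the gene, the octamer began at position -54 in Spry2 and -10 in Spred3, and Dusp6 held it at positions -24 and 2. Of these 3 genes Spred3 had groups that did not overlap, Spry2 was above the controls in 2 of 3 knockouts and Dusp6 in 1 of 3.

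The remaining genes of the pathway were read from lists of 66 genes in the table, of which 60 were tested. In these lists 1 gene was called (0.552% of all genes were), and the median log2 fold change was -0.05. In edgeR 5 higher and 7 lower genes had an unadjusted p under 0.05. That was 20% of the 60 beside 17.5% of all genes, a share near the background. The called gene was Sulf2, an enzyme that removes sulfate from heparan sulfate and so changes how FGFs bind their receptors. Sulf2 stood at 25.2, 27.4 and 26.4 CPM in the WT libraries, against 64.9, 69.5 and 138.8 CPM in the knockouts, and every cKO library was above every control. Sulf2 rose by 1.79 on the log2 scale (SE 0.281, edgeR adjusted p 0.0444), which was 1.36 without Pkm cKO replicate 3 (adjusted p 0.0152). Its call was lost without control replicate 1, 2 or 3 (adjusted p 0.258, 0.209 and 0.189), with limma-voom (0.0730) and with edgeR without robust estimation (0.0621). Gpc6, a glypican that carries heparan sulfate, had a log2 fold change of 1.05 (SE 0.271, edgeR adjusted p 0.103), and Sulf1, the sister enzyme of Sulf2, one of -0.36 (SE 0.147, adjusted p 0.243). Over the 19 heparan sulfate genes the median was -0.04. Groups did not overlap for 2 higher and 2 lower genes, 21.1% of the list beside 23.3% of all genes, a share near the background.

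The list of RAS to ERK cascade genes, which mixes activators with inhibitors such as Nf1, Rasa1 and Cbl, lay slightly lower in the knockouts. Of its 21 genes, 13 were below 0 (median -0.17) and 0 were called. Without overlap, 9 were lower (12.2% of all genes were) and 1 was higher (11.2% of all genes were). Summed, the list held 2455 to 2557 CPM in the WT libraries, against 2164 to 2297 CPM in the knockouts. The lowest p belonged to Cbl, a ubiquitin ligase that turns over receptors (log2 fold change -0.49 with SE 0.162, adjusted p 0.166 in edgeR), the kinase gene Braf (-0.53, SE 0.178, adjusted p 0.172) and the adaptor gene Grb2 (-0.38, SE 0.133, adjusted p 0.188). Mapk3, which encodes ERK1, was the higher gene (0.44, SE 0.161, adjusted p 0.205).

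A further list of ERK response and feedback genes was split. Of 14 tested, 9 were above 0 (median 0.27), 2 were higher without overlap (11.2% of all genes were) and 0 were called, with 2 at an unadjusted p under 0.05. Dusp4, a nuclear ERK phosphatase, stood at 2.64, 5.98 and 4.85 CPM in the WT libraries, against 6.56, 8.60 and 10.3 CPM in the knockouts (log2 fold change 0.92 with SE 0.348, adjusted p 0.219 in edgeR). Myc had a log2 fold change of 0.48 (SE 0.197, adjusted p 0.249). The immediate early gene Fos, by contrast, had one of -1.05 (SE 0.520, adjusted p 0.352), set by control replicate 2 at 43.1 CPM against 9.13 to 12.9 CPM in the other libraries. Of the remaining FGF ligands, Fgf16, Fgf17, Fgf5 and Fgf21 had enough reads to be tested and none had an unadjusted p under 0.05. Of the co-receptors and carriers, Fgfbp3 and Flrt1 were tested, with log2 fold changes of -0.07 (SE 0.366) and 0.47 (SE 0.323).

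The other cell types checked were as follows. Macrophage markers, 7 of 7 above 0 with C1qc called, summed to 56.8 to 61.2 CPM in the WT libraries, against 109 to 181 CPM in the knockouts. Endothelial markers summed to 241 to 306 CPM in the WT libraries, against 236 to 477 CPM in the knockouts, with 0 called. Erythroid markers summed to 527 to 745 CPM and 248 to 327 CPM, and 3 of the 5, the globin genes Hba-a1, Hbb-bs and Hbb-bt, were called lower (edgeR adjusted p 0.0487, 0.0487 and 0.0444). Odontoblast markers summed to 2354 to 5225 CPM in the WT libraries, against 202 to 3454 CPM in the knockouts, and stratum intermedium markers to 1358 to 1760 CPM and 1041 to 1925 CPM. Every marker of these lists had reads in at least 1 library, and their part in the FGF pathway values was not tested.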

How the data were processed

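RNA-seq was measured in 6 libraries, 3 per group, with groups and replicate numbers taken from the labels. The authors deposited 1 table of raw read counts per gene. The submitters' processing notes name fastp and HISAT2 as tools and mm39 as build. How reads were counted, with which annotation and strand setting, and any version, is not stated there. Per the labels' protocols, 200 ng of total RNA entered each library. Exons of 9 of the 34 members overlap another gene in GENCODE M21, 8 of them on the opposite strand. Reads in the shared stretches cannot be told apart from that gene's.

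Genes were kept by filterByExpr, scaled by TMM and tested over all genes with edgeR's quasi-likelihood test (edgeR 4.0.16, R 4.3.3, robust), a two-sided test. Calls are at a p under 0.05 after Benjamini-Hochberg adjustment. SE was taken as the absolute log2 fold change over the root of the F statistic. Alternatives were DESeq2 size factors, upper-quartile scaling, at least 1 CPM in 3 libraries, no filter beyond 1 read, each library left out, DESeq2 1.42.0, a replicate block, limma-voom (limma 3.58.1) and edgeR without robust estimation. The procedure was tested on simulated counts. Levels per kilobase divide CPM by the exon length in GENCODE M21, which may differ from the authors' annotation. No libraries were duplicates, since the chi-square per gene was 28.5 or more for every pair. For genes with few reads counting error adds to the spread. The members and lists were chosen with earlier results of these data known. By the naming rule all 34 members are given, with values per library for ligands tested and for members whose groups did not overlap or whose unadjusted p was under 0.05, then up to 4 genes of lowest p in each other list and the most abundant markers. Msx1, Myod1, C1qc, Krt13, Odam, the globin genes and further members given by library were chosen after their values were seen.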

Additional observations from a re-analysis of the deposited data

How the results depend on the processing

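The number of called members was 0 in the test as reported and 5 with no filter beyond 1 read, with the replicate block and with DESeq2; leaving out 1 library gave 0 to 5 (5 to 13 at an unadjusted p under 0.05). The 5 were not the same genes throughout: Fgf9, Fgf10, Fgf1 and Fgfr3 were called under all 3, joined by Fgf7, Spry2 and Etv4 in turn. Over all genes the count of 88 became 55 with DESeq2 size factors, 518 with no filter, 708 with the replicate block, 1098 with DESeq2, and 2 with limma-voom and with edgeR without robust estimation (2741 and 2840 at an unadjusted p under 0.05), and 0 to 640 with 1 library left out; the 0 came without control replicate 1, 2 or 3, where edgeR had 1532, 1766 and 2495 genes at an unadjusted p under 0.05. The other pathway genes had 1 called gene, 2 with no filter, the replicate block or DESeq2, 0 with limma-voom or without robust estimation (12 and 13 at an unadjusted p under 0.05), and 0 to 1 with 1 library left out. The log2 fold change of Pkm was -1.82 to -1.66 with 1 library left out, and its adjusted p passed the threshold only with all controls kept. The log2 fold change of Fgfr2, near 0, was -0.0016 with no filter, -0.0133 with the replicate block and -0.0127 with limma-voom.

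With 1 library left out, log2 fold changes that changed sign ran from -0.39 to 0.0853 for Fgfr1, from -0.16 to 0.15 for Fgfr2, from -0.40 to 0.0643 for Frs2, from -0.41 to 0.37 for Flrt2, from -0.41 to 0.38 for Spry4, from -0.0569 to 0.35 for Dusp6 and from -0.25 to 0.26 for Fgfbp3. The log2 ratio of Fgfbp1 sums ran from 0.79 to 3.98, and the difference in the mesenchymal over epithelial log2 ratio was 1.16 with Fgf3 left out. The median of the 28 members ran from 0.29 to 0.39 over the alternatives, with 19 to 22 above 0. The replicate numbers were not taken as pairs: deviations from the group means correlated at 0.235, 0.01496 and 0.215 for equal numbers, and control replicate 2 correlated best with another number. The cause of these changes was not tested. Depth limits Fgf4, Fgf8, Fgf18 and Fgf20.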
